A study of Mus musculus with 12 samples.

Results

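The genes examined here are 10 genes of the NRF2 antioxidant response: the factor gene Nfe2l2, its repressor gene Keap1, and Nqo1, Hmox1, Gclc, Gclm, Slc7a11, Txnrd1, Srxn1 and G6pdx. They were found by gene symbol in a table of 24421 genes, and all 10 had a row. Whole tibialis anterior, a hindlimb muscle, was sequenced from 12 male mice aged 4 months, with 1 library per mouse. The 6 WT mice are C57Bl/6. The 6 mdx/mTR mice combine the mdx allele, which disrupts the dystrophin gene Dmd, with mTR, the designation of the mouse telomerase RNA, whose gene is listed as Terc. The labels give strain, age and sex alone, so the state of each allele, the telomerase generation and the litter of a mouse were not known. Nothing in the labels says that libraries of a group came from separate preparations, and p-values measure the spread between these libraries.

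NRF2 is a transcription factor that is made continuously and destroyed continuously. KEAP1 holds it for ubiquitination by a CUL3 and RBX1 ligase, and oxidants or electrophiles that modify cysteines of KEAP1 let newly made NRF2 reach the nucleus. There it pairs with small MAF proteins on antioxidant response elements, where BACH1 can compete with it, and raises genes for glutathione synthesis, the thioredoxin system, NADPH supply, quinone reduction and heme breakdown. Because this control acts on protein, the mRNA of Nfe2l2 and Keap1 need not follow NRF2 activity, and the target mRNAs are the usual readout. Dystrophic muscle undergoes cycles of fibre damage and repair with inflammatory cell entry, a setting in which oxidant production is known to be raised.

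Matches to the letters of the antioxidant response element core are shown for the members whose searched windows hold one. Promoters were available in the RefSeq table of GRCm38.p6 for 8 members (10 windows, since Txnrd1 has 3), and not for Hmox1 and Gclc. The 250 bases upstream of each start were searched on both strands for the antioxidant response element core TGACNNNGC. A match was found for 4 members, Nfe2l2, Gclm, Txnrd1 and G6pdx, and in 10.2% of all 32851 windows of the table. Each match is printed with 10 bases on either side, read 5′ to 3′ on the strand that carries the core, with the core in capitals. The core begins 240 bases upstream of the start in Nfe2l2, 134 in Gclm, 92 in Txnrd1 (window 2 of 3) and 57 in G6pdx, counted from the RefSeq start. All 250 bases of the G6pdx window lie in annotated exons of GENCODE M21, inside the gene interval given below, so by that annotation this match is within the gene. The Txnrd1 match also lies inside the gene interval given below, and 27 bases of its window lie in annotated exons. Prdx1, a peroxiredoxin gene that is no member, is given for comparison because its core overlaps the related AP-1 motif TGANTCA.
Nfe2l2, chr2:75704885-75704913, minus strand: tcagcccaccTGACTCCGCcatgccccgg
Gclm, chr3:122245413-122245441, minus strand: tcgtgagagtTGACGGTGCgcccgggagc
Txnrd1, chr10:82859104-82859132, minus strand: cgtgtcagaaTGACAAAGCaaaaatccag
G6pdx, chrX:74428919-74428947, plus strand: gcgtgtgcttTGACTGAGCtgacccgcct
Prdx1, chr4:116685456-116685484, minus strand: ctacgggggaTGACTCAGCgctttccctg

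The core of none of the 4 members overlapped TGANTCA, which occurs in 6.75% of all windows. Srxn1 had no antioxidant response element core in this window but 2 matches to TGANTCA, which share the letters TGAGTCA and are shown in capitals.
Srxn1, chr2:152105412-152105438, plus strand: tcggagggccTGAGTCAccacgctgtg
Srxn1, chr2:152105469-152105495, plus strand: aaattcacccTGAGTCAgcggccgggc
The whole upstream window of Gclm, chr3:122245307-122245556 on the plus strand, is given as an example of the context, with the core in capitals as it reads on that strand.
Gclm: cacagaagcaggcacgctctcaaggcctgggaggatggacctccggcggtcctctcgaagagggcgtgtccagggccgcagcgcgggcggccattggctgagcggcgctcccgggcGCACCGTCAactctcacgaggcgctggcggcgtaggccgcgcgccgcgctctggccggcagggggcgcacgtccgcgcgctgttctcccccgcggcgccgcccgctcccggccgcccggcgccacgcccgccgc
A match is a stretch of letters and not a measured binding site. The windows of Keap1, Nqo1 and Slc7a11 held neither motif, which says only that these letters are not in the 250 bases searched.

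WT libraries held 36903560 to 40981012 counts, and mdx/mTR libraries 35136327 to 60330410. Levels are CPM, the counts scaled to a common library size, after adjustment of library sizes by the trimmed mean of M-values (TMM). Dmd lay between 228 and 244 CPM in the WT mice and between 35.2 and 56.4 CPM in the mdx/mTR mice (edgeR quasi-likelihood test, adjusted p 8.3e-10), the direction the labels call for. Terc had 2 counts in all, in 1 WT library, so the mTR allele could not be checked. The muscle fibre markers Ckm, Acta1, Mb, Tnnt3 and Pvalb were abundant in every library: their summed level was 71238 to 79991 CPM in WT and 59959 to 81773 CPM in mdx/mTR, and 1 of the 5, Mb, was lower. All 6 macrophage markers were higher in mdx/mTR, with summed levels of 46.9 to 75.1 CPM in WT and 106 to 317 CPM in mdx/mTR. All 5 fibro-adipogenic markers were higher (543 to 873 and 1150 to 2009 CPM), 2 of 3 tested neutrophil markers were higher (0.639 to 2 and 1.87 to 18.6 CPM), and 2 of 4 endothelial and 3 of 4 Schwann cell markers were lower. The satellite cell list had 2 genes higher and 1 lower of 4, smooth muscle 1 higher and 1 lower of 4, adipocyte 0 of 3 tested, and the T cell genes were below the filter. Hbb-bs, Hba-a1 and Hba-a2 had no count in any library, and Alas2 (adjusted p 0.0704 in edgeR) was the 1 erythroid marker tested. In whole muscle, fewer cells of a type and less RNA per cell cannot be told apart.

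The comparison asks whether the NRF2 genes differ between mdx/mTR and WT muscle. In mdx/mTR muscle the member transcripts were not raised as a block. Of the 9 members tested, only G6pdx was higher, while Keap1, Gclc and Txnrd1 were lower. Nfe2l2, Nqo1, Hmox1, Gclm and Srxn1 did not pass the test. Without TMM, Gclc and Txnrd1 did not pass (edgeR adjusted p 0.0528 and 0.0618) and Nfe2l2 was higher (edgeR adjusted p 0.0222). A gene was called at an adjusted p below 0.05 in edgeR, and 48.3% of the 13937 genes tested were called, 25% higher and 23.4% lower. The 4 called members of 9 (44.4%) are near that background share. The median log2 fold change (mdx/mTR minus WT) of the 9 was -0.15, against 0.01 over all genes tested, and it ranged from -0.42 for Gclc to 0.60 for G6pdx. Slc7a11 was below the filter on low counts. In the authors' deposited table, 1 member was also higher and 3 were lower, with log2 fold changes of 0.55 for G6pdx, -0.29 for Keap1, -0.42 for Gclc and -0.36 for Txnrd1, where 50.1% of its 14028 genes with an adjusted p were below 0.05.

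**Figure D1:**
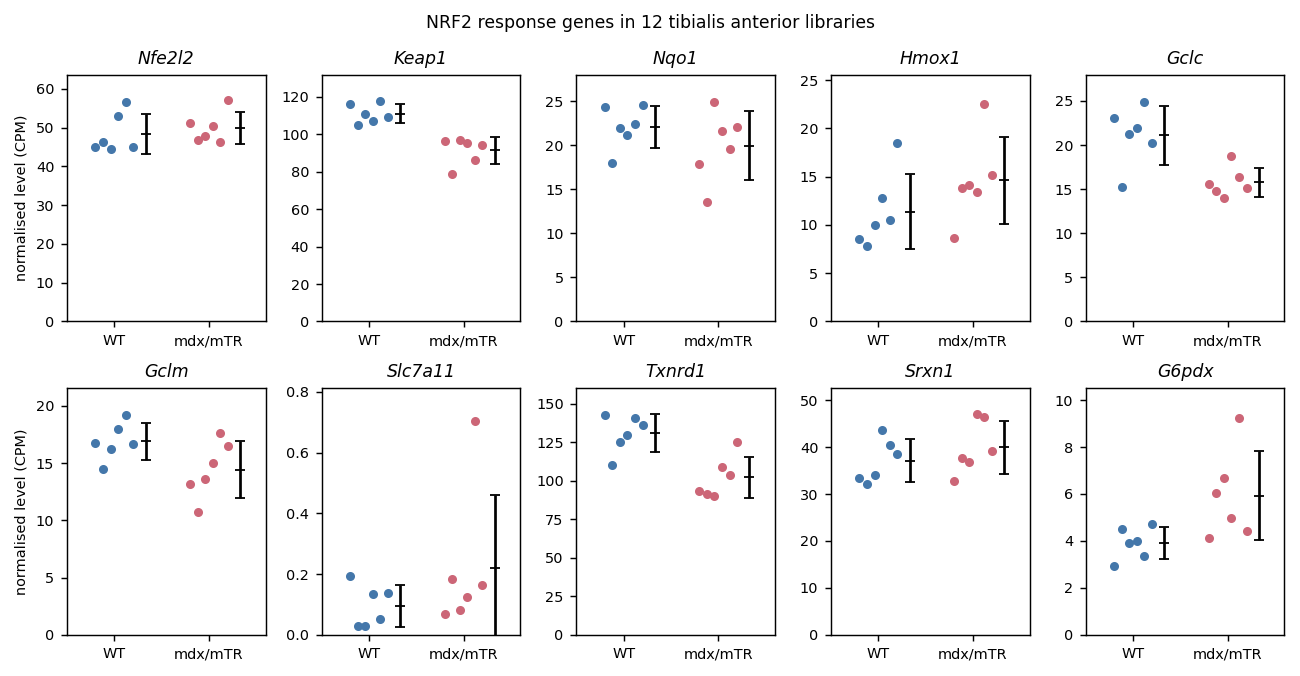
Normalised level in CPM (vertical axis, starting at 0) of each of the 10 genes in the 6 WT and 6 mdx/mTR libraries, in order of replicate number, with mean and SD in black. Keap1 is the gene whose groups do not overlap, and 1 mdx/mTR library at 0.703 CPM stands apart for Slc7a11.

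**Figure D2:**
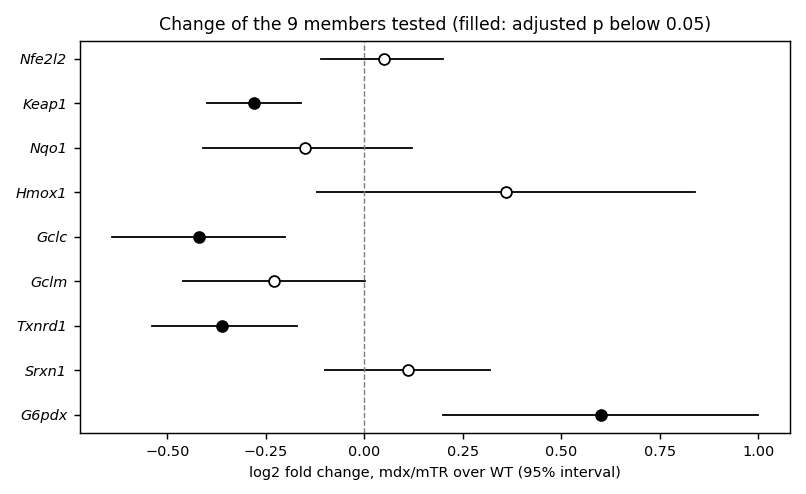
Log2 fold change between mdx/mTR and WT (horizontal axis) with its 95% interval for the 9 members tested in edgeR, filled where the adjusted p was below 0.05. Keap1, Gclc and Txnrd1 lie below 0 and G6pdx above it.

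Gene positions are given on GRCm38 with the GENCODE M21 annotation. Nfe2l2, the gene of NRF2 itself (chr2:75675513-75704641 on the minus strand), stood at 45.0, 46.4, 44.4, 53, 56.6 and 45.1 CPM in WT replicates 1 to 6 and at 51.3, 46.7, 47.8, 50.5, 46.2 and 57.2 CPM in mdx/mTR replicates 1 to 6. The groups overlapped, with 3 mdx/mTR mice on each side of the WT mean. Means were 48.4 ± 5.11 and 50 ± 4.10 CPM (SD, n = 6 each), and the log2 fold change was 0.05 ± 0.07 (SE; 95% interval -0.11 to 0.20; edgeR adjusted p 0.63). Scaling by library totals, without TMM, moves the median change of all genes by 0.16 on the log2 scale, and the change of Nfe2l2 is then 0.20 (edgeR adjusted p 0.0222). With 1 mouse left out it lay between 0.0033, without mdx/mTR replicate 6, and 0.09, without WT replicate 5 (edgeR adjusted p 0.974 and 0.274).

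Keap1, the repressor gene (chr9:21229730-21239361 on the minus strand), was lower in every mdx/mTR library than in any WT library. WT replicates 1 to 6 had 116, 105, 111, 107, 118 and 109 CPM, and mdx/mTR replicates 1 to 6 had 96.5, 79.0, 96.7, 95.6, 86.3 and 94.4 CPM. It was the member with the least spread among WT mice, with a coefficient of variation of 4.51%, and it was the 1 member of 9 without overlap. Of all genes tested 25.2% had groups without overlap, 12.6% with mdx/mTR below. The mean fell to 82.5% of WT, from 111 ± 4.99 to 91.4 ± 7.23 CPM (SD, n = 6 each), a log2 fold change of -0.28 ± 0.06 (SE; 95% interval -0.40 to -0.16; edgeR adjusted p 0.00114). By library totals it was -0.12 (edgeR adjusted p 0.0306).

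The ratio of factor to repressor transcript within a library does not depend on scaling. The ratio of Nfe2l2 to Keap1 counts was 0.390, 0.442, 0.400, 0.496, 0.480 and 0.415 in WT replicates 1 to 6 and 0.532, 0.592, 0.495, 0.528, 0.535 and 0.606 in mdx/mTR replicates 1 to 6. All but 1 of the mdx/mTR libraries lay above every WT library. The mean log2 ratio rose from -1.20 ± 0.14 in WT mice to -0.87 ± 0.11 in mdx/mTR mice (SD, 6 per group), a difference of 0.33 (two-sided exact permutation p 0.00433, adjusted p 0.00866 over 2 ratios). The smallest p that 6 against 6 mice allow is 0.00216. Numerator and denominator moved unequally, and the separate tests call the denominator.

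**Figure D3:**
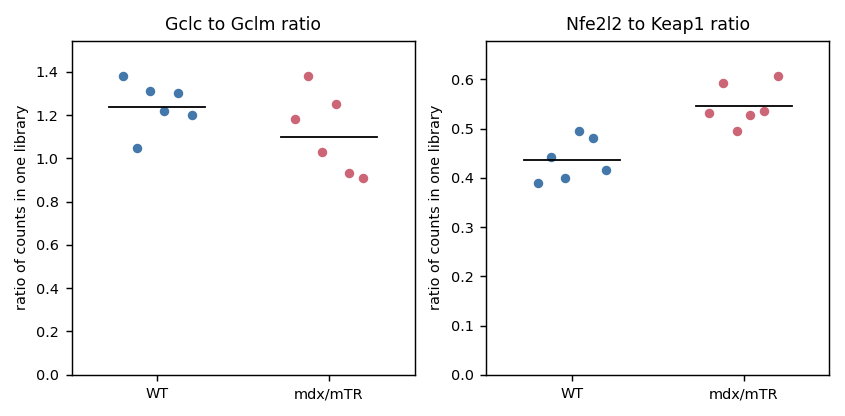
Ratio of counts within each library (vertical axis, starting at 0) of Gclc to Gclm and of Nfe2l2 to Keap1 in the 6 WT and 6 mdx/mTR libraries; lines mark geometric means. The Nfe2l2 to Keap1 ratio is at most 0.496 in WT and at least 0.495 in mdx/mTR, while the Gclc to Gclm ratios overlap over most of their range.

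Glutathione synthesis begins with glutamate cysteine ligase, an enzyme of a catalytic subunit encoded by Gclc (chr9:77754535-77794485 on the plus strand) and a modifier subunit encoded by Gclm (chr3:122245557-122270732 on the plus strand). Gclc stood at 23.1, 15.2, 21.3, 21.9, 24.9 and 20.2 CPM in WT replicates 1 to 6 and at 15.6, 14.8, 14.0, 18.7, 16.4 and 15.1 CPM in mdx/mTR replicates 1 to 6. The groups overlapped through WT replicate 2, the lowest WT library, and all 6 mdx/mTR mice were below the WT mean. Gclc fell to 74.7% of WT, from 21.1 ± 3.31 to 15.7 ± 1.64 CPM (SD, n = 6 each; log2 fold change -0.42 ± 0.10 SE, edgeR adjusted p 0.0043). When library totals set the scale, the change was -0.26 (edgeR adjusted p 0.0528).

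Gclm had 16.8, 14.5, 16.2, 18, 19.2 and 16.7 CPM in WT replicates 1 to 6 and 13.2, 10.7, 13.6, 15.0, 17.6 and 16.5 CPM in mdx/mTR replicates 1 to 6. In mdx/mTR, 3 libraries lay below all of WT and the others within it. The log2 fold change was -0.23 ± 0.11 (SE; 95% interval -0.46 to 0.0014; edgeR adjusted p 0.0933). Without mdx/mTR replicate 5, its highest mdx/mTR library, it was -0.30 (edgeR adjusted p 0.0301), and without mdx/mTR replicate 2, its lowest, it was -0.15 (edgeR adjusted p 0.176). The value without TMM was -0.07 (edgeR adjusted p 0.647). The Gclc to Gclm count ratio spanned 1.05 to 1.38 among WT and 0.910 to 1.38 among mdx/mTR libraries, and its mean log2 value differed by -0.17 (0.31 ± 0.14 and 0.14 ± 0.24, SD, n = 6 each; two-sided exact permutation p 0.167, adjusted p 0.167), less than the spread among mdx/mTR mice.

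Slc7a11 (chr3:49892526-50443614 on the minus strand) encodes the transport subunit of the cystine and glutamate exchanger that feeds cysteine to glutathione synthesis. It had 7, 1, 1, 5, 2 and 5 counts in WT replicates 1 to 6 and 4, 12, 3, 6, 33 and 10 counts in mdx/mTR replicates 1 to 6. Among mdx/mTR mice replicate 5 was the highest, at 0.703 CPM. The other 5 mdx/mTR libraries lay between 0.0697 and 0.184 CPM, inside the WT range of 0.0278 to 0.194 CPM. A count of 3, up to which a count of 0 leaves the level undetermined, is 0.0460 to 0.0837 CPM here, so the transcript was near the limit of detection in most libraries. When genes with any count were tested, its log2 fold change was 1.17 (95% interval -0.15 to 2.50; edgeR adjusted p 0.163). A difference was not detected at these low counts, and the interval is wide.

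Txnrd1 (chr10:82833951-82897712 on the plus strand) encodes cytosolic thioredoxin reductase, a selenoprotein that regenerates thioredoxin with NADPH. It stood at 143, 110, 125, 130, 141 and 136 CPM in WT replicates 1 to 6 and at 93.4, 91.1, 90.3, 109, 104 and 125 CPM in mdx/mTR replicates 1 to 6. In mdx/mTR, 5 of 6 libraries lay below all of WT, and replicate 6 lay inside the WT range. The mean fell to 78.0% of WT, from 131 ± 12.1 to 102 ± 13.6 CPM (SD, n = 6 each; log2 fold change -0.36 ± 0.09 SE, edgeR adjusted p 0.00368). A smaller value of -0.20 was found without TMM (edgeR adjusted p 0.0618).

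Srxn1 (chr2:152105516-152111376 on the plus strand) encodes sulfiredoxin, which repairs over-oxidised peroxiredoxins. It had 33.5, 32.1, 34.0, 43.7, 40.5 and 38.5 CPM in WT replicates 1 to 6 and 32.8, 37.7, 36.8, 47.1, 46.4 and 39.1 CPM in mdx/mTR replicates 1 to 6. The ranges overlapped, with 2 mdx/mTR libraries above the highest WT library. The log2 fold change was 0.11 ± 0.10 (SE; 95% interval -0.10 to 0.32; edgeR adjusted p 0.379). It was 0.07 without WT replicate 2 and 0.06 without mdx/mTR replicate 4 or 5 (edgeR adjusted p 0.588, 0.653 and 0.647), and on the scale of library totals 0.27 (edgeR adjusted p 0.0643).

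Nqo1, the quinone reductase gene that is often read as the marker of NRF2 activity (chr8:107388225-107403206 on the minus strand), had 24.3, 18, 22.0, 21.1, 22.4 and 24.6 CPM in WT replicates 1 to 6. The mdx/mTR libraries had 17.9, 13.6, 24.9, 21.6, 19.6 and 22.1 CPM in the same order of numbers. The mdx/mTR libraries spread to both sides of WT, 1 above its highest and 2 below its lowest library. Means were 22.1 ± 2.40 and 20 ± 3.92 CPM (SD, n = 6 each), and the log2 fold change was -0.15 ± 0.12 (SE; 95% interval -0.41 to 0.12; edgeR adjusted p 0.341). Without mdx/mTR replicate 2, the lowest library, it was -0.06 (edgeR adjusted p 0.652). The sign turned without TMM (0.0077, edgeR adjusted p 0.965).

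Hmox1 (chr8:75093621-75100589 on the plus strand) encodes heme oxygenase-1, which cleaves heme to biliverdin, iron and carbon monoxide. WT replicates 1 to 6 had 8.58, 7.84, 10, 12.8, 10.5 and 18.5 CPM, and mdx/mTR replicates 1 to 6 had 8.63, 13.8, 14.1, 13.4, 22.5 and 15.2 CPM. In mdx/mTR 5 of 6 libraries were above the WT mean, but WT replicate 6 exceeded all mdx/mTR libraries except replicate 5. Hmox1 was the most variable of the tested members in WT, with a coefficient of variation of 34.1%. Means were 11.4 ± 3.87 and 14.6 ± 4.47 CPM (SD, n = 6 each), and the log2 fold change was 0.36 ± 0.22 (SE; 95% interval -0.12 to 0.84; edgeR adjusted p 0.20). Without WT replicate 6 it was 0.55 (edgeR adjusted p 0.037), and without mdx/mTR replicate 5 it was 0.19 (edgeR adjusted p 0.463), so the value rested on single libraries in both groups. Without TMM it was 0.53 (edgeR adjusted p 0.0881).

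G6pdx (chrX:74409483-74429194 on the minus strand) encodes glucose-6-phosphate dehydrogenase, the entry enzyme of the pentose phosphate pathway and a source of the NADPH that both glutathione reductase and thioredoxin reductase use. It had 2.92, 4.49, 3.91, 3.98, 3.37 and 4.73 CPM in WT replicates 1 to 6 and 4.13, 6.06, 6.70, 4.99, 9.25 and 4.44 CPM in mdx/mTR replicates 1 to 6. All 6 mdx/mTR mice were above the WT mean and 4 were above every WT library. The mean rose to 152% of WT, from 3.90 ± 0.678 to 5.93 ± 1.90 CPM (SD, n = 6 each; log2 fold change 0.60 ± 0.19 SE, edgeR adjusted p 0.0175). Of the 50-base stretches of its transcript 7.65% also occur in the copy G6pd2, so a small part of its level is uncertain.

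Markers of other cell types were set beside G6pdx within each group. In mdx/mTR its 3 lowest libraries, replicates 1, 6 and 4, were also the 3 lowest for the summed macrophage markers (106, 127 and 154 CPM), and replicate 5 was highest for both (317 CPM of markers). Over the 6 mdx/mTR mice Pearson's r of G6pdx with the marker sum, both as log2 values, was 0.986 (exact permutation p 0.00278, adjusted p 0.05) and Spearman's rho was 0.943 (exact permutation p 0.0167, adjusted p 0.10). Over the 6 WT mice r was 0.945 (exact permutation p 0.00833, adjusted p 0.075) and rho was 0.943 (exact permutation p 0.0167, adjusted p 0.10). Adjustment was over 18 relations, 9 members in each group, chosen after the values were seen, and no relation had an adjusted p below 0.05. Without the 2 mice farthest from the median of the marker sum, r was 0.956 in mdx/mTR and 0.821 in WT. For Hmox1 in mdx/mTR, r was 0.853 (exact permutation p 0.0569, adjusted p 0.256), rho was 0.60 (exact permutation p 0.242, adjusted p 0.621), and r turned to -0.603 without mdx/mTR replicates 1 and 5, so that relation rests on those mice. For Nfe2l2 in mdx/mTR, r was -0.765 (exact permutation p 0.0736, adjusted p 0.265), rho was -0.943 (exact permutation p 0.0167, adjusted p 0.10), and r was -0.975 without the same mice. Leaving out these 2 of 6 mice also moved r from -0.187 to -0.998 for Txnrd1 and from 0.213 to -0.866 for Gclm. For Keap1 it was -0.564 with them and -0.485 without. Values of r after this removal are therefore unstable. In WT mice Nfe2l2 had r -0.138 and rho 0.143 (exact permutation p 0.81 and 0.803), and r was -0.364 without WT replicates 1 and 6. A difference between the groups in this relation was not tested. Keap1 had r -0.818 in WT and -0.564 in mdx/mTR (exact permutation p 0.0569 and 0.258, adjusted p 0.256 and 0.578). Fibro-adipogenic markers took a similar order among mdx/mTR mice, while adipocyte and Schwann cell markers did not. The adipocyte sum was lowest in replicate 5 (4.62 CPM) and highest in replicate 3 (15.4 CPM). The Schwann cell sum was lowest in replicate 4 (14.1 CPM) and highest in replicate 6 (22.5 CPM). The fibro-adipogenic sum was 1150, 1194 and 1164 CPM in replicates 1, 6 and 4, 1718 and 1333 CPM in replicates 2 and 3, and 2009 CPM in replicate 5. Replicate 5 was also highest for the neutrophil sum (18.6 CPM) and lowest for the muscle fibre sum (59959 CPM). In WT the fibro-adipogenic sum was lowest in replicates 1 and 5 (543 and 611 CPM), as G6pdx was. The part of any of these cells in the levels of G6pdx and Hmox1 was not tested.

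**Figure D4:**
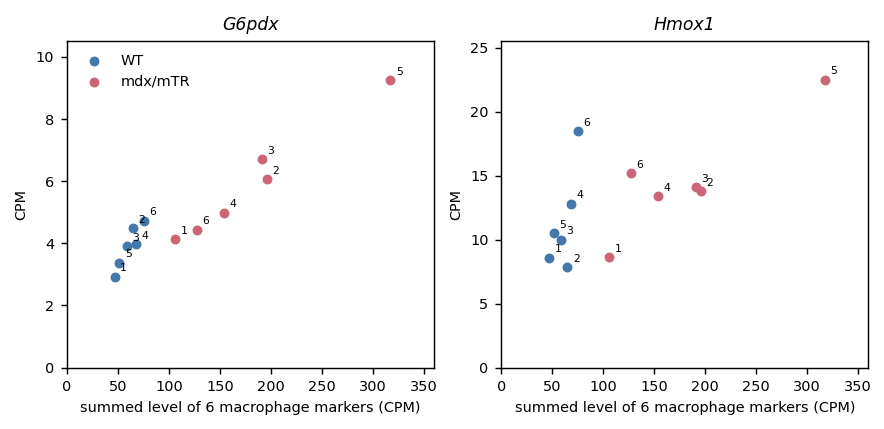
Level of G6pdx and of Hmox1 in CPM (vertical axes) against the summed level of 6 macrophage markers in CPM (horizontal axes) in the 12 libraries, numbered by replicate. G6pdx rises with the marker sum among WT (2.92 to 4.73 CPM) and among mdx/mTR libraries (4.13 to 9.25 CPM); for Hmox1, WT replicate 6 at 18.5 CPM lies apart from the other WT libraries.

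Per length of all annotated exons, the order of the members in WT was Keap1 (23.6 ± 1.06 CPM per kilobase), Txnrd1 (18.5 ± 1.71), Nqo1 (14.2 ± 1.55), Srxn1 (13.1 ± 1.62), Nfe2l2 (12.8 ± 1.35), Hmox1 (6.49 ± 2.21), Gclc (5.60 ± 0.878), Gclm (2.69 ± 0.251), G6pdx (1.27 ± 0.220) and Slc7a11 (0.00685 ± 0.00497; SD, n = 6). Nqo1, Srxn1 and Nfe2l2 did not differ beyond their spread, nor did Hmox1 and Gclc. In mdx/mTR Keap1 (19.5 ± 1.54 CPM per kilobase) was again the highest on this scale, followed by Txnrd1 (14.4 ± 1.91), Srxn1 (14.2 ± 2), Nfe2l2 (13.2 ± 1.08) and Nqo1 (12.9 ± 2.53), which did not differ beyond their spread. Hmox1 (8.34 ± 2.55) and Gclc (4.18 ± 0.435) were further apart than in WT. The transcripts of Keap1 and of the thioredoxin and quinone enzymes were thus at a higher level per length than those of both glutamate cysteine ligase subunits in either group. The order depends on the length used. Per length of the longest coding transcript, a measure added after the values were seen, Txnrd1 stood above Keap1 in WT (36.1 ± 3.34 and 30.7 ± 1.38 CPM per kilobase) and in mdx/mTR (28.2 ± 3.74 and 25.3 ± 2). Nfe2l2 was then above Nqo1 and Srxn1, at 19.6 ± 2.06 in WT and 20.2 ± 1.65 in mdx/mTR. Nqo1 was at 14.2 ± 1.55 and 12.9 ± 2.53, and Srxn1 at 13.2 ± 1.62 and 14.2 ± 2.01.

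Beyond the members, 68 other genes of the NRF2 system were listed in 6 groups, and 60 of them were tested. Of the 60, 19 were higher and 20 lower in mdx/mTR (65.0%, against 48.3% of all genes), with a median log2 fold change of -0.02. The groups did not overlap for 15 genes with mdx/mTR above and 10 with mdx/mTR below, against 12.6% of all genes tested in each direction (25.2% in both). Without TMM, 26 were higher and 10 lower. The list thus held rises and falls side by side, as the members did.

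Among 10 regulators, 2 were higher and 5 lower (70% called, against 48.3% of all genes tested). Cul3, the scaffold of the ligase that KEAP1 serves, fell from 363 ± 20.7 to 260 ± 26.7 CPM (SD, n = 6 each; log2 fold change -0.48 ± 0.07 SE, edgeR adjusted p 9.7e-05), and its groups did not overlap. Rbx1, the ring subunit of that ligase, was at 56.2 ± 3.76 and 57.1 ± 5.29 CPM (0.02, edgeR adjusted p 0.793), with a sign that turned without WT replicate 2 or mdx/mTR replicate 6, and 0.18 without TMM (edgeR adjusted p 0.00799). The small MAF genes were split. Maff (0.51, edgeR adjusted p 0.00769) and Mafk (0.37, edgeR adjusted p 0.00212) were higher, while Mafg (-0.17, edgeR adjusted p 0.128) did not pass, or was lower without WT replicate 2 (-0.23, edgeR adjusted p 0.0187). Bach1, the competing repressor, fell from 55.1 ± 8.72 to 42.5 ± 2.51 CPM (-0.38, edgeR adjusted p 0.00505), and was -0.22 without TMM (edgeR adjusted p 0.0741). Nfe2l1, the gene of the related factor NRF1, was lower (-0.26, edgeR adjusted p 0.00241), and was -0.11 without TMM (edgeR adjusted p 0.0465). Sqstm1, whose product p62 binds KEAP1, was lower (-0.22, edgeR adjusted p 0.0184), as was the kinase gene Gsk3b (-0.20, edgeR adjusted p 0.00959), but without TMM they were at -0.06 and -0.04 (edgeR adjusted p 0.43 and 0.552). Btrc, the gene of the adaptor of a KEAP1-independent route of NRF2 breakdown, was at -0.01 (edgeR adjusted p 0.858) and 0.15 without TMM (edgeR adjusted p 0.0141).

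Of 21 genes of glutathione synthesis and use, 14 were tested, 2 of them higher and 5 lower. That is 50% called, near the 48.3% of all genes tested. Gpx1, a glutathione peroxidase, rose from 40.7 ± 5.30 to 78.5 ± 5.10 CPM (SD, n = 6 each; log2 fold change 0.95, edgeR adjusted p 1.2e-06) without overlap. Mgst1, a membrane glutathione transferase, fell from 34.8 ± 5.78 to 15.6 ± 2.09 CPM (-1.16, edgeR adjusted p 4.7e-06), and Abcc4, an exporter, from 36.6 ± 2.02 to 23.2 ± 2.10 CPM (-0.66, edgeR adjusted p 3.4e-06). Gsta4, a transferase for lipid aldehydes, was lower as well (-0.47, edgeR adjusted p 9.6e-04). Gss and Gsr, which complete and regenerate glutathione and are named here after their values were seen, were at 11.7 and 24.5 CPM in WT and at 11.7 and 25.0 CPM in mdx/mTR (edgeR adjusted p 0.967 and 0.834).

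The thioredoxin and peroxiredoxin group had 4 of 9 genes higher and 2 lower (66.7% called, against 48.3% of all genes tested). Thioredoxin itself, Txn1, rose from 30.7 ± 1.03 to 39.0 ± 4.17 CPM (SD, n = 6 each; 0.34, edgeR adjusted p 7.1e-04), opposite in sign to its reductase gene Txnrd1. The peroxiredoxins were split, with Prdx4 of the secretory pathway higher (0.75, edgeR adjusted p 1.6e-04) and Prdx6 lower (-0.29, edgeR adjusted p 3.1e-04). Sesn1, a sestrin gene, was higher (0.45, edgeR adjusted p 3.7e-04).

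For NADPH supply 3 of 6 genes were higher and 1 lower (66.7% called, against 48.3% of all genes tested). Pgd and Pgls, which follow G6pdx in the oxidative pentose phosphate pathway, rose with it. Pgd went from 15.6 ± 1.08 to 21.4 ± 4.42 CPM (SD, n = 6 each; 0.46, edgeR adjusted p 0.00421) and Pgls from 14 ± 0.721 to 16.7 ± 2 CPM (0.26, edgeR adjusted p 0.0145). Idh1, a cytosolic isocitrate dehydrogenase gene, was higher (0.36, edgeR adjusted p 0.00169). Malic enzyme, Me1, went the other way, from 185 ± 19.2 to 106 ± 19.8 CPM (-0.81, edgeR adjusted p 8.0e-05), and 26.5% of its stretches are shared with other genes.

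In the heme and iron group 2 of 6 tested genes were higher and 2 lower (66.7% called, against 48.3% of all genes tested). Blvrb, a biliverdin reductase gene, rose from 3.59 ± 0.444 to 6.04 ± 0.746 CPM (SD, n = 6 each; 0.75, edgeR adjusted p 8.1e-05). Ftl1, ferritin light chain, rose (0.88, edgeR adjusted p 7.6e-05), though 78.9% of its stretches are shared with other genes, which leaves its level uncertain. Ferritin heavy chain, Fth1, was lower (-0.20, edgeR adjusted p 0.00835; -0.05 without TMM, edgeR adjusted p 0.403). Slc40a1, the iron exporter ferroportin, fell from 71.6 ± 6.67 to 35.0 ± 4.93 CPM (-1.03, edgeR adjusted p 2.1e-06).

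The detoxification group held the largest rise of the list, with 6 of 15 genes higher and 5 lower (73.3% called, against 48.3% of all genes tested). Akr1b8, an aldo-keto reductase gene, rose from 1.37 ± 0.365 to 6.76 ± 1.47 CPM (SD, n = 6 each; log2 fold change 2.30 ± 0.18 SE, edgeR adjusted p 8.6e-07) and Ptgr1, an alkenal reductase gene, from 1.29 ± 0.393 to 3.35 ± 0.611 CPM (1.37, edgeR adjusted p 5.9e-05). Sod3, extracellular superoxide dismutase, rose from 8.98 ± 0.823 to 17.6 ± 3.76 CPM (0.97, edgeR adjusted p 4.7e-05). Catalase, Cat, fell from 162 ± 23.5 to 89.7 ± 16.8 CPM (-0.85, edgeR adjusted p 7.4e-05). In this group 6 of 15 genes had genotypes that did not overlap, against 25.2% of all genes tested. Beside these rises stand the higher macrophage and fibro-adipogenic marker sums given above, and the part of those cells was not tested.

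**Figure D5:**
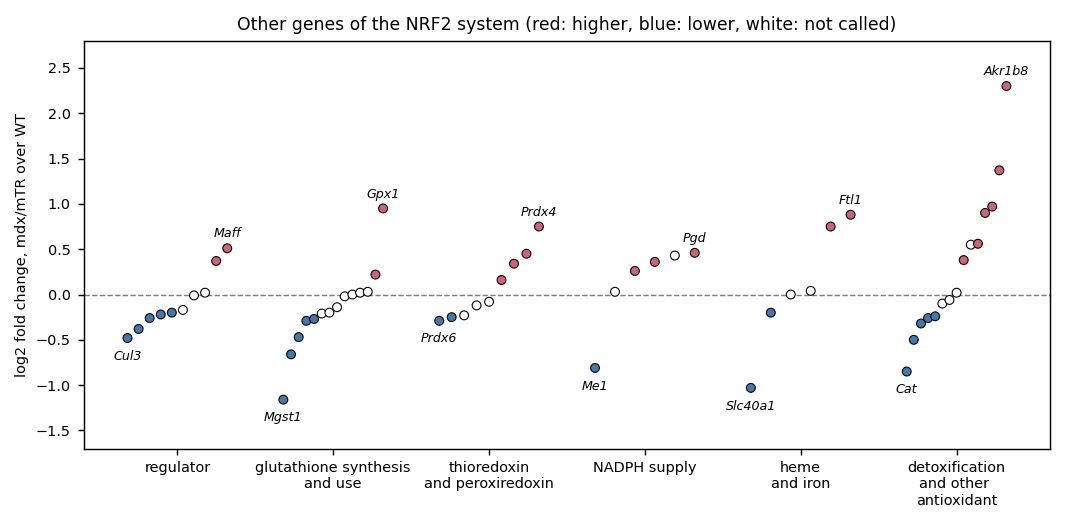
Log2 fold change between mdx/mTR and WT (vertical axis) of the 60 tested genes of the NRF2 system outside the 10 members, in 6 groups, ordered by value within each group and coloured by the edgeR call at an adjusted p of 0.05. Each group holds genes on both sides of 0, from Mgst1 at -1.16 to Akr1b8 at 2.30.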

How the data were processed

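RNA of 12 tibialis anterior muscles was sequenced, 6 per group. Per the submitters' processing notes FastQC, STAR and DESeq2 were used with genome mm10; versions, the counter and strand handling are not given in the sources used here. The authors deposited whole-number counts per gene symbol, with 0 unmatched columns. The authors' deposited table of their comparison holds p-values, a test score, a log2 fold change with an error, and a mean normalized signal. Counts were tested with edgeR 4.0.16 in R 4.3.3 (filterByExpr, 13937 genes; TMM; quasi-likelihood test on group; Benjamini-Hochberg over all genes, threshold 0.05). Intervals are 95%, and the standard error is the log2 fold change over the square root of F. Ratios were compared by exact permutation (smaller tail doubled). The floor of 3 counts covers counting error only. On simulated counts of 13937 genes edgeR recovered 91.0% of 200 changed genes with 9 false calls, and 78.0% of those changed 1.5-fold. The simulation changed far fewer genes than the 6736 called in the data, and none by less than 1.5-fold. Recovery of smaller changes, such as those of Keap1, Gclc and Txnrd1, was therefore not measured. Replicate pairs differed by more than sampling noise (chi-square per degree of freedom 9.29 to 122). Shared sequence and exon lengths came from GENCODE M21.

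The members and lists were chosen with earlier results of these data known. Named genes are the members, the regulators, and in each other group the 4 smallest p-values among called genes; for each member, the 2 genes of mean at least 5 CPM nearest in log2(CPM + 0.5) after subtraction of group means; those of 1 member are not reported here. Alternatives were 3 other scalings, 2 other filters, DESeq2 1.42.0, limma-voom (limma 3.58.1), a replicate block, each mouse left out, and a threshold of 0.01. Relations with macrophage markers were added after the data were seen.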

Additional observations from a re-analysis of the deposited data

Results flagged for a closer look

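In every set of 6 libraries the distance between an extreme library and the next one was divided by the full range, and compared with Dixon's 95% critical value. Of 84 sets of values examined (the 10 members, the 30 other named genes and the 2 ratios in each genotype) 6 exceeded that value, where chance gives about 4.2. Among the members it was Slc7a11 alone, for which mdx/mTR replicate 5 had 0.703 CPM and the other 5 had 0.0697 to 0.184 CPM (quotient 0.819). The same library was lowest for Nfe2l1, at 824 CPM against 933 to 988 CPM (quotient 0.669). WT replicate 2 was lowest for Bach1, at 39.0 CPM against 54.7 to 62.8 CPM (quotient 0.660), and highest for Prdx4, at 5.39 CPM against 3.85 to 4.39 CPM (quotient 0.649). Bach1 was also apart in mdx/mTR replicate 3, with 37.7 CPM beside 42.1 to 44.8 CPM (quotient 0.627). Idh1 was highest in mdx/mTR replicate 2, with 41.7 CPM beside 31.1 to 34.3 CPM (quotient 0.704). The quotient is taken gene by gene and does not show a library that is low across genes. WT replicate 2 was the lowest WT library for 7 of the 10 members. Without it the log2 fold change was -0.50 for Gclc and -0.40 for Txnrd1 (edgeR adjusted p 2.5e-04 and 0.00154). The calls stayed at 1 member higher and 3 lower.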

How the results depend on the processing

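Each of the 9 tested members had 20 alternative values, and 173 of the 180 kept the direction and the side of the threshold; Keap1, Srxn1 and G6pdx did so in all. Of the 30 other named genes 23 did so in all. Without TMM, by library totals, 2 members were higher (Nfe2l2, G6pdx) and 1 lower (Keap1), 10 pathway genes were lower, and the whole table had 5596 genes higher and 1560 lower (78.2% of calls higher, 51.6% with TMM); Nqo1 (0.0077) and Btrc (0.15) changed sign. At an adjusted p below 0.01, 0 members were higher (at an unadjusted p under 0.05 in edgeR, G6pdx has p 0.00668) and 3 were lower. Btrc also turned positive with upper quartile scaling (0.03), with at least 1 CPM in 6 libraries (0.0036), and without WT replicate 3 (0.0057) or mdx/mTR replicate 5 (0.0024); Rbx1 turned negative without WT replicate 2 (-0.0098) or mdx/mTR replicate 6 (-0.0065). Over all fits without 1 mouse Rbx1 ranged from -0.0098 to 0.06 and Btrc from -0.03 to 0.0057. Such fits without 1 mouse gave 1 to 2 members higher, 2 only without WT replicate 6, where Hmox1 passed, and 3 to 4 lower, 4 without mdx/mTR replicate 5, where Gclm passed. They gave 18 to 20 pathway genes higher and 20 to 21 lower, and 3163 to 3562 and 2950 to 3254 of all genes. The Nfe2l2 to Keap1 difference ranged from 0.30 to 0.37 and the Gclc to Gclm difference from -0.24 to -0.11. Apart from what is stated, the cause of these changes was not tested.

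The groups share replicate numbers, but deviations from group means of same-numbered libraries correlated above 0.1 for 2 of 6 numbers (range -0.155 to 0.354), which does not make them pairs. Adding a replicate block gave 6420 called genes against 6736 without it, 6197 of them shared, and 1 member was higher and 4 lower, Gclm being the addition (-0.24, edgeR adjusted p 0.0171). As paired values, the Nfe2l2 to Keap1 difference of 0.33 had an exact sign-flip p of 0.0312, the smallest that 6 pairs allow, and an adjusted p of 0.0625.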

Other observations

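How the members varied together among mice of the same genotype was examined after subtraction of group means over the 12 libraries, as a description. Of 36 pairs of the 9 tested members 28 had a positive Pearson r, with a median of 0.38. The highest were Keap1 with Nqo1 (0.76), Gclm with Txnrd1 (0.73) and Hmox1 with Srxn1 (0.69), and the lowest was Keap1 with G6pdx (-0.56). These values share library scaling, and 12 libraries leave them imprecise. The share of muscle fibre RNA in a library may also enter them and was not tested. Among WT libraries, replicate 2 was the lowest for 7 of the 10 members.

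Among 9509 genes, those nearest to a member in this measure were Gas7 (0.971) and Iqgap1 (0.968) for G6pdx, C1ra (0.925) and Csf1 (0.895) for Hmox1, and 6030458C11Rik (0.895) and Poc5 (0.859) for Nfe2l2. For the enzymes of glutathione synthesis they were Lonrf1 (0.909) and Sbk2 (0.904) for Gclc and Phf20 (0.938) and Noc2l (0.929) for Gclm. Fbxw4 (0.918) and Smarcc2 (0.904) were nearest to Nqo1, Ubqln2 (0.909) and Kank1 (0.902) to Txnrd1, and Stk11ip (0.904) and Ppan (0.887) to Srxn1. For the 8 members named, no other member was among the 2 nearest genes. With 2 places among 9509 genes, that says little about whether the members vary together.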
